A study of Mus musculus with 4 samples.

Results

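The platelet-derived growth factor (PDGF) family was read on 4 one-color arrays of cells sorted from *Bcr-Abl*+ tumors, through the genes of its 4 ligands, *Pdgfa*, *Pdgfb*, *Pdgfc* and *Pdgfd*, and its 2 receptors, *Pdgfra* and *Pdgfrb*. The members were the spots, other than controls, whose transcript accession mapped to these symbols, and all 6 genes were found among 22911 symbols on the array. *Pdgfa* had 2 probes and each of the other members 1, which gave 7 spots per array. Wt and *Sipa1*-/- mice of the C57BL/6Ncr strain, 8 weeks old and 5 per genotype, received *Bcr-Abl*+ GFP+ hematopoietic progenitor cells in Matrigel under the skin, and the tumors of both genotypes were collected on day 12. Mesenchymal stroma cells (MSCs) were sorted as GFP- CD45- Ter119- CD31- cells and CD8+ T cells as GFP- TCRb+ CD8+ cells, each from Wt and from *Sipa1*-/- tumors. The labels give no PDGFRα antibody for the MSC sort, so *Pdgfra* was not part of the gate. The *Sipa1*-/- mice carried the deletion in all host cells, tumor cells and sorted cells came from the same tissue digest, and how the 5 mice contributed to each array is not given in the sources used here. With 1 array per condition there is no replicate of any value below, and differences are described without p-values.

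PDGFs are secreted dimers that act on receptor tyrosine kinases of mesenchymal cells. PDGFRα binds the A, B and C chains and PDGFRβ binds the B and D chains. The A and B chains are cleaved by proprotein convertases before secretion, whereas the C and D chains are secreted with a CUB domain that extracellular proteases have to remove. The ligands are made by epithelial, endothelial and blood cells, including platelets, among others, and the receptors mainly by fibroblasts, pericytes and other stromal cells.

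Upstream sequences were taken from RefSeq (GRCm38.p6) and are shown for 4 of the 6 members, each of which stood higher on the *Sipa1*-/- MSC array. Those of *Pdgfb* and *Pdgfrb* are not shown here. Each covers the 250 bases before the outermost listed transcription start, 5′ to 3′ on the strand of the gene. Both strands were searched for the TATA box (TATAAA), the GC box (GGGCGG), the CCAAT box (CCAAT) and the AP-1 element (TGANTCA), and capitals mark the matches, none of which overlapped.
Pdgfa, chr5:138994945-138995194, minus strand: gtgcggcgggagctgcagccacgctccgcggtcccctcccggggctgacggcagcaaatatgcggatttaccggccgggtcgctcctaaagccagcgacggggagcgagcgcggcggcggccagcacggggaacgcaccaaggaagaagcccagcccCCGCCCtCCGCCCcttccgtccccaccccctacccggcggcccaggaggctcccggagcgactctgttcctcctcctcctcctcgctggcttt
Pdgfc, chr3:81036166-81036415, plus strand: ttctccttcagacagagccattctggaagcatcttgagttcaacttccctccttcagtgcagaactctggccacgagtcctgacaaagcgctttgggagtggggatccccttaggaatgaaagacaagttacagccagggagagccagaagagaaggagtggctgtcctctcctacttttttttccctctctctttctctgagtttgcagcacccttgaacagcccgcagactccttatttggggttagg
Pdgfd, chr9:6168236-6168485, plus strand: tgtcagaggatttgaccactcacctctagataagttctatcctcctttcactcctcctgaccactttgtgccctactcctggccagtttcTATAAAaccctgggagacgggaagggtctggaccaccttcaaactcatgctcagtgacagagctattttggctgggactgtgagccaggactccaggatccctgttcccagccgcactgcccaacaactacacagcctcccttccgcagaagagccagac
Pdgfra, chr5:75152001-75152250, plus strand: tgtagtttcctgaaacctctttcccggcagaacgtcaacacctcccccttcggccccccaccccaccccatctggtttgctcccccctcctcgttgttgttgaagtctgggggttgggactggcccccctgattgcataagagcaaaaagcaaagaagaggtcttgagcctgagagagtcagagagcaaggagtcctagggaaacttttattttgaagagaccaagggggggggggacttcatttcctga

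The 4 windows differed in composition. The GC content was 72.4% before *Pdgfa*, 50.8% before *Pdgfc*, 53.6% before *Pdgfd* and 54.4% before *Pdgfra*, against a median of 52.4% over 32851 windows of the same length. The *Pdgfa* window held 2 GC boxes on the opposite strand, at 93 and 86 bases before the start, and GC boxes occurred in 32.7% of all windows. The *Pdgfd* window held a TATA box 160 bases before the start, a motif found in 12.4% of all windows. The windows of *Pdgfc* and *Pdgfra* held none of the 4 motifs, of which the CCAAT box occurred in 33.8% and the AP-1 element in 6.75% of all windows. These matches describe letters only, and no binding was measured.

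Levels are the log2 spot signal minus the 75th percentile of the array, so that a level of 0 equals that percentile. A level holds for its own probe and cannot be set against another probe. The error after ± is the scanner software's error of the spot, or that of both spots combined for a difference, and does not cover the spread between mice. On the 4 arrays, 60.3 to 65.3% of the spots were well above background and 0 were saturated, and the lowest level well above background lay between -5.86 and -5.49. Where a probe was not well above background on 1 array, the difference is a lower bound, set from the higher of that lowest level and the dim spot's own level. *Sipa1*, the deleted gene, stood at 3.05 and 5.03 on its 2 probes on the Wt MSC array and at 1.46 and 3.78 on the *Sipa1*-/- MSC array. On the CD8+ T arrays its levels were 3.43 and 5.40 in Wt and 1.39 and 3.73 in *Sipa1*-/-. The signal was lower on both *Sipa1*-/- arrays and stayed well above background, and where the probes lie relative to the deleted part was not examined.

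The sorts held RNA of other cells, and its amount differed between the arrays. The 11 fibroblast markers summed to 1022 times the 75th percentile signal in Wt MSCs, 1694 in *Sipa1*-/- MSCs, 208 in Wt CD8+ T cells and 303 in *Sipa1*-/- CD8+ T cells. *Thy1*, which T cells carry too, is among them and made up most of both CD8+ T sums, at levels of 7.37 in Wt and 7.46 in *Sipa1*-/-. The sums there thus say little about the other markers. The median level of the 11 markers was 0.40 on the Wt and 1.56 on the *Sipa1*-/- CD8+ T array. All 11 were well above background on every array. Of the B lineage markers, 12 summed to 684 on the Wt MSC array and to 42.0 on the *Sipa1*-/- MSC array, and all 11 that were measured were at least 2-fold lower there, with a median log2 ratio of -4.16. The 10 common leukocyte markers summed to 187 and 52.2 on the same arrays. The 8 granulocyte markers summed to 725 in Wt and 815 in *Sipa1*-/- MSCs, and to 626 and 332 on the CD8+ T arrays. T cell markers summed to 537 and 556 on the CD8+ T arrays and to 19.7 and 4.24 on the MSC arrays. *Cd2*, which went from 4.08 in Wt to 0.56 in *Sipa1*-/- MSCs, made up most of the former sum, and over the 9 T cell markers measured in MSCs the median log2 ratio was 0.66, with 3 at least 2-fold higher and 3 lower. In RNA of sorted populations, fewer cells of a type and less RNA per cell cannot be told apart.

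Among the ligands, *Pdgfa* encodes the A chain, which signals through PDGFRα only. Its first probe (A_51_P370099) had levels of -2.17 in Wt MSCs, -0.90 in *Sipa1*-/- MSCs, -4.30 in Wt CD8+ T cells and -3.76 in *Sipa1*-/- CD8+ T cells. Its second probe (A_55_P2007470) read 0.66, 2.05, -1.34 and -0.81 in the same order. The probes thus ranked the arrays alike, with the *Sipa1*-/- MSC array highest and the Wt CD8+ T array lowest. In MSCs the log2 ratio of *Sipa1*-/- over Wt was 1.28 ± 0.21 on the first probe and 1.40 ± 0.20 on the second, or 2.42-fold and 2.63-fold. In CD8+ T cells it was 0.54 ± 0.27 and 0.53 ± 0.21, below 2-fold on each.

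*Pdgfb* encodes the B chain, which binds both receptors and is best known from endothelium and platelets. Its levels were -3.57 in Wt MSCs, -2.45 in *Sipa1*-/- MSCs, 1.46 in Wt CD8+ T cells and 1.39 in *Sipa1*-/- CD8+ T cells. It was the only member with its higher levels on the CD8+ T arrays. In MSCs the log2 ratio of *Sipa1*-/- over Wt was 1.12 ± 0.22, and the spot of the *Sipa1*-/- array failed the flag for uniform local background. In CD8+ T cells the ratio was -0.073 ± 0.20, within the scanner error of 0, and it was 0.060 with the scaling of the authors' series matrix. Megakaryocyte and platelet markers summed to 1.89 and 3.24 on the Wt and *Sipa1*-/- MSC arrays and to 0.984 and 0.931 on the CD8+ T arrays, with 10, 9, 8 and 5 of 10 well above background in that order. The endothelial markers summed to 8.74, 7.18, 5.38 and 5.45 in the same order, with 8 to 10 of 10 well above background, and the part of either in the *Pdgfb* levels was not tested.

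*Pdgfc* encodes the C chain, a ligand of PDGFRα that is activated outside the cell. Its levels were -1.79 in Wt MSCs, 1.11 in *Sipa1*-/- MSCs, -5.80 in Wt CD8+ T cells and -4.23 in *Sipa1*-/- CD8+ T cells. The spot of the Wt CD8+ T array was not well above background. In MSCs *Pdgfc* had a log2 ratio of 2.90 ± 0.21, or 7.48-fold, the highest of the family. In CD8+ T cells it was at least 2.52-fold higher in *Sipa1*-/- with the background correction of the scanner software. With normexp background correction the log2 ratio was 0.33, below that bound.

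*Pdgfd* encodes the D chain, a ligand of PDGFRβ that likewise needs cleavage. Its levels were -3.23 in Wt MSCs, -1.56 in *Sipa1*-/- MSCs, -7.88 in Wt CD8+ T cells and -7.02 in *Sipa1*-/- CD8+ T cells. Neither CD8+ T spot was well above background, so no genotype fold is given there. In MSCs the log2 ratio of *Sipa1*-/- over Wt was 1.67 ± 0.21, or 3.18-fold, and with normexp background correction it was 1.01.

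Of the receptors, *Pdgfra* encodes PDGFRα, a surface marker of fibroblasts and mesenchymal progenitors. Its levels were 3.01 in Wt MSCs, 4.52 in *Sipa1*-/- MSCs, -1.88 in Wt CD8+ T cells and -0.44 in *Sipa1*-/- CD8+ T cells. The log2 ratio of *Sipa1*-/- over Wt was 1.52 ± 0.20 in MSCs and 1.44 ± 0.21 in CD8+ T cells, or 2.86-fold and 2.71-fold. On both MSC arrays the spot failed the flag for uniform local background, so that the flags of the methods leave *Pdgfra* out of the MSC comparison. The median pixel brightness of these spots was 3706 in Wt and 10579 in *Sipa1*-/-, over local background medians of 26 and 25.

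*Pdgfrb* encodes PDGFRβ, the receptor of pericytes and of many fibroblasts. Its levels were 1.74 in Wt MSCs, 3.76 in *Sipa1*-/- MSCs, -2.77 in Wt CD8+ T cells and -1.09 in *Sipa1*-/- CD8+ T cells. The spot passed every flag on all 4 arrays. The log2 ratio of *Sipa1*-/- over Wt was 2.02 ± 0.20 in MSCs, or 4.05-fold, and 1.68 ± 0.21 in CD8+ T cells, or 3.21-fold.

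**Figure D1:**
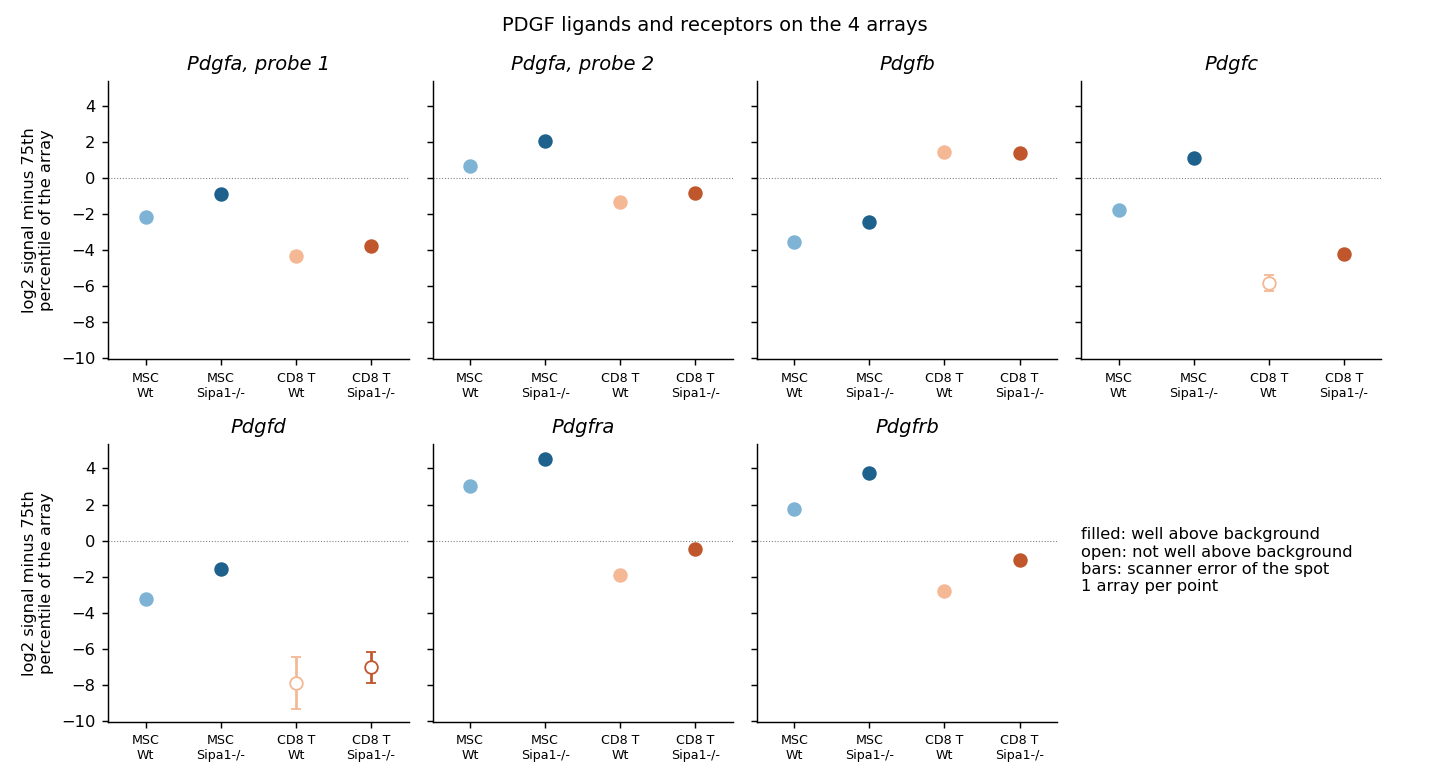
Level of each probe of the 6 PDGF genes on the 4 arrays (y axis, log2 signal minus the 75th percentile of the array), 1 array per point, with the scanner error of the spot as bars and open points where the spot was not well above background. *Pdgfb* alone stands higher on the CD8+ T arrays (1.46 and 1.39) than on the MSC arrays (-3.57 and -2.45), and *Pdgfd* is not well above background on either CD8+ T array.

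The first question was how the family differed between genotypes in MSCs. All 6 members were at least 2-fold higher on the *Sipa1*-/- MSC array, with 4 of them passing the flags on both arrays, while 19.3% of all 15298 genes measured were as much higher. The order was *Pdgfc*, *Pdgfrb*, *Pdgfd*, *Pdgfra*, *Pdgfa* and *Pdgfb*, and in this order the ratios of neighbours from *Pdgfd* down lay within their combined scanner errors of each other. The share of all genes with a lower ratio was 99.6% for *Pdgfc*, 96.7% for *Pdgfrb*, 92.6% for *Pdgfd*, 90.0% for *Pdgfra*, 86.9% for *Pdgfa* and 83.0% for *Pdgfb*. The median over all genes was 0.043.

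The fibroblast markers moved with the family on these arrays. Their log2 ratios in MSCs ran from 0.26 for *Col1a1* (collagen I) to 2.54 for *Postn* (periostin), with a median of 1.56 and 7 of 11 at least 2-fold higher. Of the PDGF genes, 5 lay within this range and *Pdgfc* lay above it. With the mean level of these 11 markers as the reference in place of the 75th percentile, a setting chosen after seeing the data, *Pdgfc* remained 2-fold higher in *Sipa1*-/- MSCs at 1.60 and *Pdgfrb* stood at 0.72, while the other members lay between -0.18 (*Pdgfb*) and 0.37 (*Pdgfd*). The count past 2-fold was then 1 of 6. The pericyte and smooth muscle markers had a median of 0.77, with 5 of 12 at least 2-fold higher and summed levels of 36.9 in Wt and 42.0 in *Sipa1*-/-. The B lineage and common leukocyte RNA that was lower on the *Sipa1*-/- MSC array moved in the opposite direction, and its part in the ratios was not tested.

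**Figure D2:**
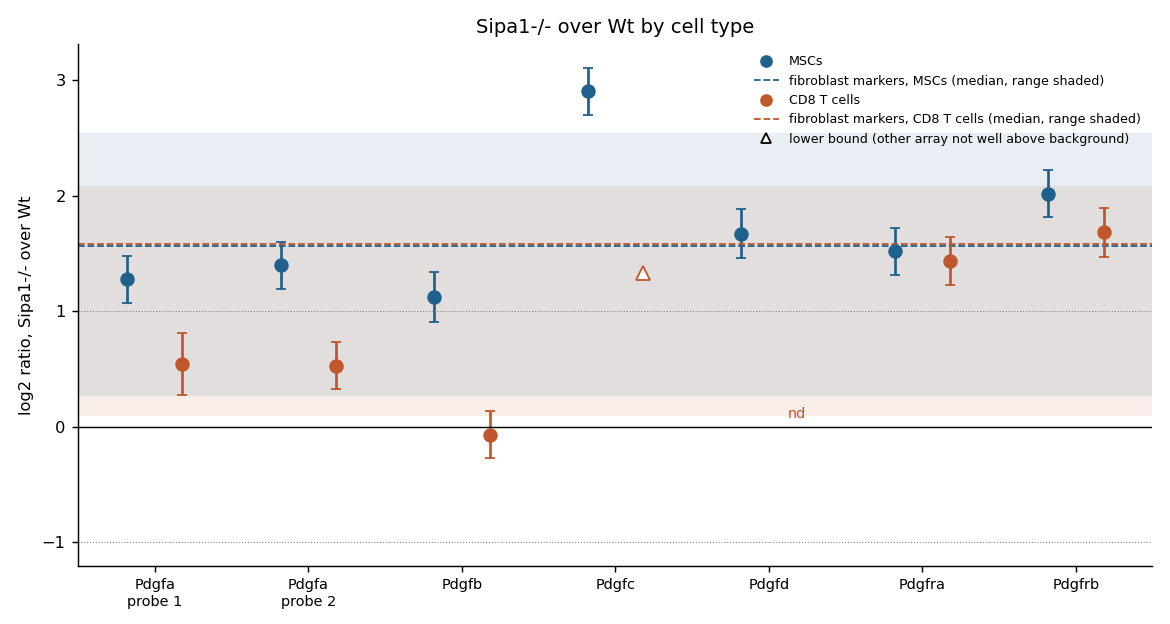
Log2 ratio of *Sipa1*-/- over Wt for each probe (y axis) in MSCs and in CD8+ T cells, with the combined scanner error of the spots as bars, a lower bound as an open triangle, nd where both spots were not well above background, and the median (dashed) and range (shaded) of 11 fibroblast markers. In MSCs only *Pdgfc*, at 2.90, lies above the range of the fibroblast markers, and in CD8+ T cells only *Pdgfb*, at -0.073, lies below it. The lower edge in CD8+ T cells is *Thy1* at 0.088, which T cells carry too. The next lowest marker there is *Col5a1* at 1.15, and both *Pdgfa* probes, at 0.54 and 0.53, lie below that.

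In CD8+ T cells the family split. *Pdgfrb*, *Pdgfra* and *Pdgfc* were at least 2-fold higher in *Sipa1*-/-, which is 3 of 6 members, while 2.66% of all 14339 genes measured were as much higher. Of the members, 4 passed the flags on both arrays and are among these genes, and 2 of the 4, the receptors, were higher. *Pdgfc* rests on its bound, and over the 8 settings other than the fibroblast reference the count was 2 to 4. *Pdgfrb* was above 99.4% and *Pdgfra* above 98.9% of all genes measured, *Pdgfa* was above 92.4% and *Pdgfb* above 40.3%. The 11 fibroblast markers had a median log2 ratio of 1.58 on the same arrays, with 10 at least 2-fold higher, *Postn* highest at 2.08 and *Thy1* lowest at 0.088. With their mean as the reference, *Pdgfrb* stood at 0.19, *Pdgfc* at 0.079, *Pdgfra* at -0.060 and *Pdgfa* at -0.96, and 0 of 6 members were past 2-fold. The T cell markers had a median ratio of -0.0020, with 0 of 10 past 2-fold. The part of fibroblast RNA in the receptor signal of the CD8+ T sort was not tested.

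**Figure D3:**
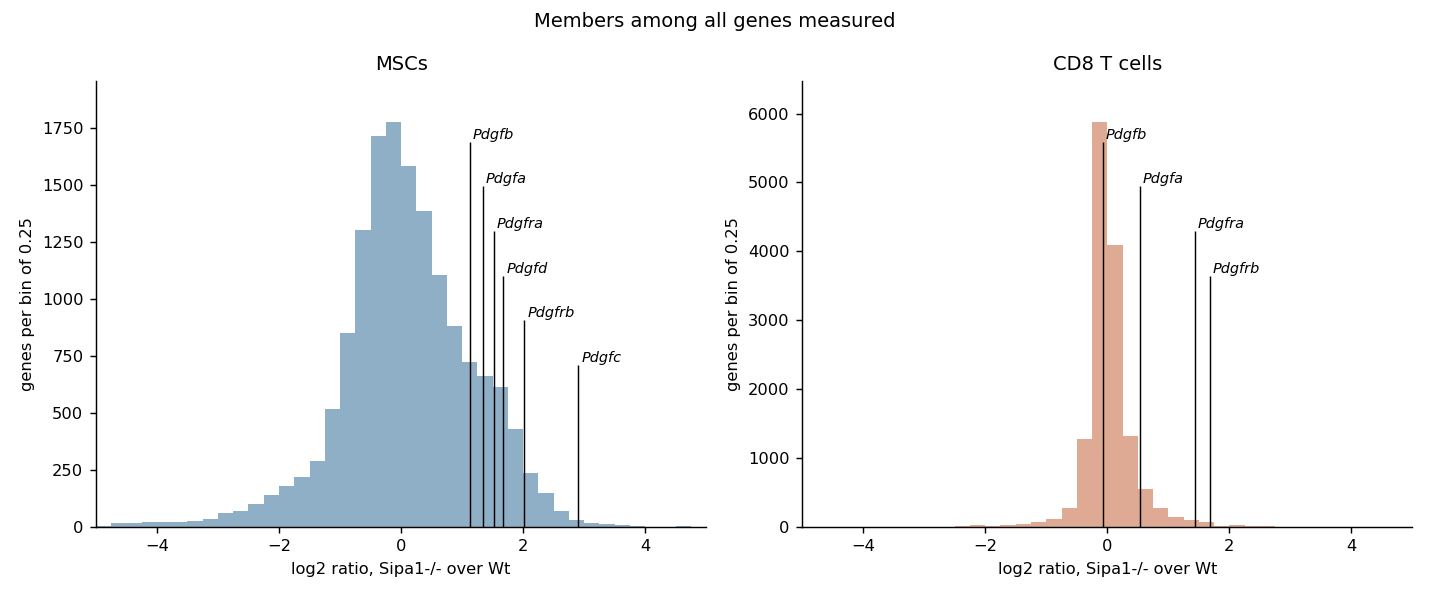
Number of genes (y axis) in bins of 0.25 of the log2 ratio of *Sipa1*-/- over Wt (x axis) in MSCs (left) and CD8+ T cells (right), with the members marked by lines whose heights carry no value; *Pdgfc* and *Pdgfd* are left out on the right because a CD8+ T spot was not well above background. The MSC distribution is wide and holds all 6 members on its right side, from 1.12 to 2.90, and the CD8+ T distribution is narrow, with *Pdgfb* near its center and both receptors far to the right.

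The genotype ratio in MSCs minus that in CD8+ T cells was 0.082 ± 0.29 for *Pdgfra* and 0.34 ± 0.29 for *Pdgfrb*, within the scanner error for the first and just beyond it for the second. For *Pdgfa* it was 0.74 ± 0.34 and 0.87 ± 0.29 on the 2 probes, and for *Pdgfb* it was 1.19 ± 0.30. The ligands measured in both sorts thus had the higher ratio in MSCs, without a test of the difference.

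The next question was which sort carried which member. In Wt tumors 5 of 6 members were at least 2-fold higher in MSCs than in CD8+ T cells and 1 was at least 2-fold lower, against 17.3% of all genes higher and 12.8% lower. The percentages are over genes that pass the flags, which only 3 of the members did, 2 of them higher, and with normexp 4 members were at least 2-fold higher. In *Sipa1*-/- tumors the counts were again 5 and 1, against 21.9% of all genes higher and 18.7% lower, with 3 members passing the flags and all 3 higher. The genotype and cell type comparisons use the same 4 arrays and are not independent of each other.

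*Pdgfra* was 29.5-fold higher in Wt MSCs than in Wt CD8+ T cells, a log2 difference of 4.88 ± 0.21, and 31.2-fold higher in *Sipa1*-/-, at 4.96 ± 0.20. *Pdgfrb* differed by 4.51 ± 0.21 in Wt and 4.85 ± 0.20 in *Sipa1*-/-. The median difference of the 11 fibroblast markers was 5.08 in Wt and 5.48 in *Sipa1*-/-, close to both receptors. *Pdgfc* was at least 13.7-fold higher in MSCs of Wt tumors and 40.5-fold higher in those of *Sipa1*-/- tumors, and *Pdgfd* at least 5.02-fold and at least 15.2-fold higher. These bounds depend on the background correction, here that of the scanner software. With normexp, which adds an offset of 50 to the signal, the log2 difference in Wt was 1.31 for *Pdgfc* and 0.77, which is below 2-fold, for *Pdgfd*, and in *Sipa1*-/- it was 3.34 and 1.63. *Pdgfa* had smaller differences, of 2.13 ± 0.25 and 2.00 ± 0.20 in Wt and of 2.87 ± 0.23 and 2.87 ± 0.20 in *Sipa1*-/-, on its 2 probes.

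*Pdgfb* was 32.8-fold lower in MSCs than in CD8+ T cells of Wt tumors, a log2 difference of -5.04 ± 0.21, and 14.3-fold lower in *Sipa1*-/- tumors, at -3.84 ± 0.21. The T cell markers had median differences of -6.78 and -6.84 in the same comparisons. Only 0.612% of all genes measured had a lower difference than *Pdgfb* in Wt and 2.15% in *Sipa1*-/-. The macrophage markers, cells that can carry *Pdgfb*, summed to 3.96 and 9.54 on the Wt and *Sipa1*-/- MSC arrays and to 12.0 and 14.1 on the CD8+ T arrays, with *Cd163* and *Msr1* not well above background in Wt MSCs, and their part was not tested.

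**Figure D4:**
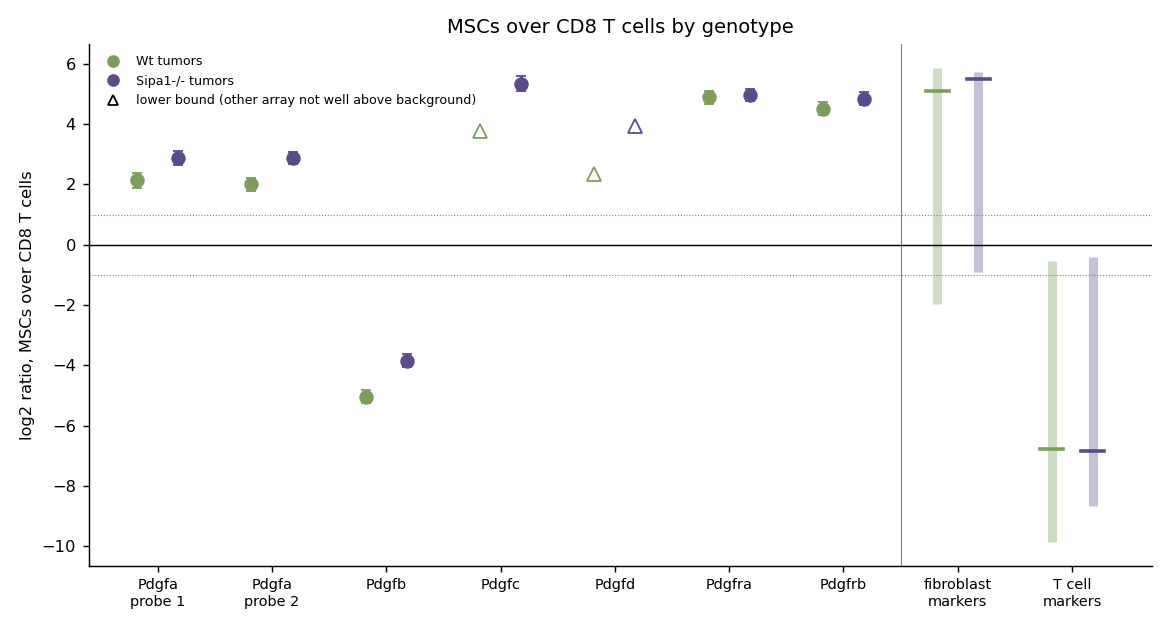
Log2 ratio of MSCs over CD8+ T cells (y axis) for each probe in Wt and in *Sipa1*-/- tumors, with the combined scanner error as bars and lower bounds as open triangles, beside the range (thick lines) and median (short bars) of the fibroblast and T cell markers. The receptors, at 4.51 to 4.96, lie near the fibroblast medians of 5.08 and 5.48. *Pdgfb*, at -5.04 and -3.84, lies within the T cell marker range only through *Cd4* (-0.55 and -0.41) and, in Wt, *Cd2* (-2.19). All other T cell markers measured were lower than *Pdgfb* in the same comparison.

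Among themselves the members fell into patterns of unequal likeness, given as the root mean square difference of log2 levels over the 4 arrays after each gene's own mean was subtracted. The nearest pairs were *Pdgfd* and *Pdgfra* at 0.22 and *Pdgfra* and *Pdgfrb* at 0.23, followed by *Pdgfc* and *Pdgfrb* at 0.32. *Pdgfa* stood 1.20 to 1.31 from these 4 genes, and *Pdgfb* 3.46 from *Pdgfa* and 4.61 to 4.76 from the others. The *Pdgfd* and *Pdgfc* patterns include spots that were not well above background. Over all genes that passed on the same arrays, the nearest to *Pdgfa* were *Rnd3* (0.035), *Nedd4* (0.058) and *S100a1* (0.062), and the nearest to *Pdgfb* were *Rab11fip4* (0.10), *Bcl2a1c* (0.14) and *Ctla4* (0.15). *Pdgfc* was nearest to *Ncam1* (0.13), *Zfp618* (0.15) and *Ndufa4l2* (0.16), and *Pdgfd* to *Tmem132c* (0.027), *Gfpt2* (0.046) and *Steap1* (0.046). *Pdgfra* was nearest to *C1s2* (0.054), *C1s1* (0.059) and *C1rb* (0.060), and *Pdgfrb* to *Tmem119* (0.079), *Epb41l3* (0.080) and *Fn1* (0.093). With 4 arrays, these distances describe the patterns only.

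Both receptor genes lie beside relatives of theirs in the RefSeq gene order, *Pdgfra* followed by *Kit* and *Kdr* and *Pdgfrb* by *Csf1r*. In MSCs the log2 ratio of *Sipa1*-/- over Wt was -0.26 for *Kit*, the receptor of stem cell factor, 1.71 for *Kdr*, a VEGF receptor, and 0.85 for *Csf1r*, the receptor of macrophage colony-stimulating factor. In CD8+ T cells the ratios of these neighbours were 0.11, 0.48 and 0.067, against 1.44 for *Pdgfra* and 1.68 for *Pdgfrb*. None of these neighbours was 2-fold higher in the CD8+ T sort, where only 2.66% of all genes were, so this says little about the neighbours. In MSCs *Kdr* was past 2-fold, as were 19.3% of all genes.

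Beyond the members, 8 lists of 81 genes of the PDGF pathway were read the same way. In MSCs 78 were measured, of which 29 were at least 2-fold higher in *Sipa1*-/- and 2 at least 2-fold lower, against 19.3% of all genes higher and 11.3% lower, and the median log2 ratio was 0.66 against 0.043 for all genes. On the CD8+ T arrays 77 were measured, 8 higher and 3 lower, against 2.66% of all genes higher and 1.4% lower, with a median of 0.054 against -0.022. With normexp the CD8+ T counts were 2 and 1.

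Beside the lists that follow stand the 11 fibroblast markers, of which 7 were at least 2-fold higher on the *Sipa1*-/- MSC array (median 1.56) and 10 on the *Sipa1*-/- CD8+ T array (median 1.58), and their part in the lists was not tested. The B lineage and common leukocyte markers were lower on the *Sipa1*-/- MSC array, with medians of -4.16 and -1.99. Their part in the lists was not tested either. Of 6 processing genes, 5 were at least 2-fold higher in MSCs and 1 lower, with a median of 1.92, where 19.3% of all genes were as much higher. *Plau* (urokinase) had a ratio of 2.48 ± 0.16, *Pcsk6* and *Pcsk5*, both proprotein convertases, 2.26 ± 0.17 and 1.86 ± 0.15, and *Plat* (tissue plasminogen activator, which cleaves the C chain) 1.97 ± 0.20. *St14* (matriptase) went the other way, from -0.67 on the Wt array to -4.16 on the *Sipa1*-/- array. The CD8+ T arrays had 3 of the 6 higher, against 2.66% of all genes, *Pcsk5* at 2.52 ± 0.31, *Pcsk6* at 1.38 ± 0.30 and *Plau* at 1.15 ± 0.21. This count fell to 0 of 6 with normexp and also with no flags asked. Of the 3 genes whose products bind PDGFs, *A2m* (alpha-2-macroglobulin) was higher in *Sipa1*-/- MSCs by 2.51 ± 0.20 and *Thbs1* (thrombospondin) by 1.61 ± 0.14, and *Sparc* stood at 0.80 ± 0.14. *Thbs1* was lower in *Sipa1*-/- CD8+ T cells, at -1.14 ± 0.15, and *Sparc* higher, at 1.43 ± 0.14.

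The receptor partners and relatives were higher in MSCs for 3 of 3 genes, *Pdgfrl* (a PDGF receptor-like gene) at 2.28 ± 0.20, *Lrp1* at 1.66 ± 0.20 and *Nrp1* at 1.44 ± 0.12. On the CD8+ T arrays *Pdgfrl* stood at 2.17 ± 0.23 and *Lrp1* at 1.16 ± 0.20, with 2 of 3 past 2-fold. Of 36 genes that carry the signal inside the cell, 35 were measured in each cell type. In MSCs 3 were at least 2-fold higher and 0 lower, with a median of 0.25, against 19.3% of all genes higher and 11.3% lower. These were the kinases *Yes1* at 1.92 ± 0.21 and *Src* at 1.32 ± 0.19 and the docking protein *Gab1* at 1.18 ± 0.21. Among CD8+ T cells 0 of 35 were past 2-fold in either direction, with a median of 0.050. That count is near the shares of all genes, 2.66% higher and 1.4% lower. Of the negative regulators, 8 of 9 were measured. In MSCs 1 of the 8 was at least 2-fold lower, near the 11.3% of all genes. In CD8+ T cells 1 was higher, against 2.66% of all genes. *Dusp6*, an ERK phosphatase, was lower in *Sipa1*-/- MSCs by 1.75 on the log2 scale (-1.75 ± 0.20), on an array where leukocyte markers were lower too. *Spry1* was higher in CD8+ T cells at 1.03 ± 0.20.

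Of the related VEGF ligands, 3 of 5 were at least 2-fold higher in *Sipa1*-/- MSCs, where 19.3% of all genes were as much higher. These were *Vegfd* at 1.35 ± 0.14, *Vegfc* at 1.33 ± 0.15 and *Pgf* at 1.22 ± 0.21. In CD8+ T cells *Vegfd* alone was past 2-fold, at 1.38 ± 0.22, against 2.66% of all genes. Of the related receptors, *Flt1* at 2.06 ± 0.20 and *Kdr* at 1.71 ± 0.21 were the 2 past 2-fold among 5 measured in MSCs. In CD8+ T cells 0 of 5 were, near the share of all genes.

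The early genes, which cells switch on within minutes to hours of PDGF and of many other stimuli, went apart between the sorts. In MSCs 11 of 13 were at least 2-fold higher in *Sipa1*-/- and 0 lower, with a median of 1.54, where 19.3% of all genes were as much higher. *Fosb* went from -1.53 to 1.11, *Fosl1* from -3.36 to -1.03, *Egr2* from 0.64 to 2.56 and *Ier3* from 0.72 to 2.60. The CD8+ T arrays had 0 genes 2-fold higher and 2 lower, against 2.66% of all genes higher and 1.4% lower, so that the 0 is near the share of all genes. The 2 were *Ptgs2* (cyclooxygenase-2) at -2.15 ± 0.20 and *Fosl1* at -1.35 ± 0.25, and the list median was -0.48. Over the main and the 8 other processing settings, the median of the early genes stayed between 1.40 and 1.92 in MSCs and between -0.62 and -0.34 in CD8+ T cells. The fibroblast markers had a median of 1.56 on the MSC arrays and the B lineage markers one of -4.16. Granulocyte markers were lower on the *Sipa1*-/- CD8+ T array, with a median of -1.08 5 of 8 at least 2-fold lower and summed levels of 626 in Wt and 332 in *Sipa1*-/-, and macrophage markers higher on the *Sipa1*-/- MSC array, with a median of 1.04 and 6 of 9 at least 2-fold higher, and the part of any of these in the early genes was not tested.

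**Figure D5:**
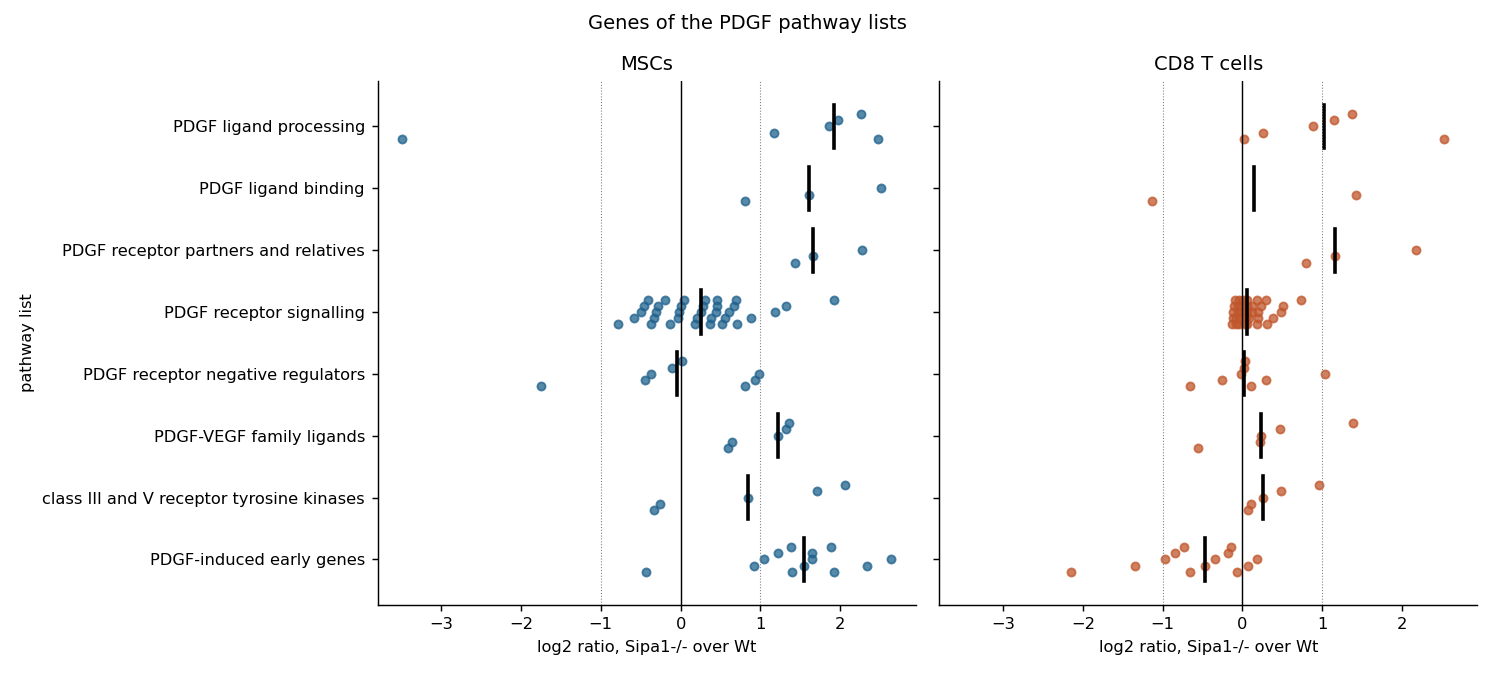
Log2 ratio of *Sipa1*-/- over Wt (x axis) of every measured gene of the 8 pathway lists (y axis) in MSCs (left) and CD8+ T cells (right), with the list median as a black bar and dotted lines at 2-fold. The early genes lie mostly above 1 in MSCs, with a median of 1.54, and mostly below 0 in CD8+ T cells, where the median is -0.48, and the signalling genes lie near 0 in both, with medians of 0.25 and 0.050.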

How the data were processed

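RNA of 4 sorted populations was hybridized in 1 color (Cy3) to Agilent mouse arrays, 1 array each on 1 slide with 1 scan. The deposited intensity values are spot signals that the authors' Feature Extraction software (9.1 per the labels, 12.0.3.1 per the file headers) had corrected for background, with their errors and flags and without normalization between arrays. The deposited series matrix holds the same intensity values times 1 constant per array, on a linear scale; how the constants were chosen is not given in the sources used here. The array design names another genome build than the symbols, which came from accessions matched to RefSeq (GRCm38.p6) for 57.6% of spots.

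Levels were log2 signal minus the 75th percentile of spots that are not controls. For gene ratios, spots passing the methods' flags on both arrays were averaged per probe and then per gene; members are given whatever their flags. A log2 ratio of 1 (2-fold) was the count threshold. No test was possible with 1 array per condition. Among probes printed on 10 spots, the median SD was 0.040 to 0.045 log2; the number of arrays limits the precision. Alternatives were the 50th percentile, spots above background on all 4 arrays, quantile normalization, the series matrix, normexp (offset 50) on the median spot signal, other flag rules and the brightest probe, plus the fibroblast markers as reference, added after seeing the data. The members, lists and named-gene rule (up to 4 genes past 2-fold per list and direction, and the 3 nearest patterns per member) were chosen with earlier results of these data known. The scaling and the gene averaging were checked on copies of a real array with known changes and noise added. The other steps were not checked in this way. R 4.3.3 with limma 3.58.1 and Python 3.11.15 with pandas 2.3.3 and numpy 2.4.6 were used.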

Additional observations from a re-analysis of the deposited data

Results flagged for a closer look

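Some values had opposite signs in MSCs and CD8+ T cells. None of these differences was tested, since each condition had 1 array. *Pdgfb* had a log2 ratio of *Sipa1*-/- over Wt of 1.12 on the MSC arrays and -0.073 on the CD8+ T arrays, the latter within the scanner error of 0. Among genes that process or bind the ligands, *St14* had -3.49 and 0.25, and *Thbs1* had 1.61 and -1.14. Among the early genes, *Fosb* had 2.64 and -0.18, the latter within the scanner error of 0. *Fosl1* had 2.33 and -1.35, *Ier3* 1.88 and -0.97, and *Ptgs2* 1.04 and -2.15. The median of the early genes was 1.54 on the MSC arrays and -0.48 on the CD8+ T arrays. *Dusp6*, a negative regulator, had -1.75 and 0.11 in the same order, the latter within the scanner error of 0. The median of the negative regulators, at -0.050 and 0.024, was near 0 in both and changed sign with the scaling in each.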

How the results depend on the processing

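No paired analysis was possible because a single array stood for each condition. In MSCs the members measured kept a ratio above 0 under the 8 alternatives listed first, with 5 or 6 past 2-fold. *Pdgfra* had no value with flags asked on at least 1 array, since its spot fails on both. All 4 ligands were lowest under normexp. *Pdgfb* ranged from 0.65 to 1.33, *Pdgfd* from 1.01 to 1.88, *Pdgfa* from 1.06 to 1.54 and *Pdgfc* from 2.36 to 3.11. With the fibroblast markers as reference the count was 1 for the MSC and 0 for the CD8+ T arrays, and the sign turned for *Pdgfb* in MSCs (-0.18) and for *Pdgfa* (-0.96), *Pdgfd* (-0.64) and *Pdgfra* (-0.060) in CD8+ T cells. The series matrix turned *Pdgfb* in CD8+ T cells to 0.060. Of the members' single values under these 8, 152 stayed within the scanner error, 37 moved further and 1 reversed. Many of the 152 could not move. Members are given whatever their flags, so the other flag rules repeat the main value wherever they give one. The brightest probe can change *Pdgfa* only. Under normexp, the genes at least 2-fold higher in MSCs numbered 1828 in place of 2958, those in CD8+ T cells 108 higher and 98 lower in place of 381 and 201, and the pathway genes in CD8+ T cells 2 higher and 1 lower in place of 8 and 3. Without flags the CD8+ T counts were 1059 and 633, and with flags on at least 1 array 685 and 371. The median over all genes in MSCs was 0.043, and 0.25 with the series matrix, and in CD8+ T cells -0.022, and 0.11 with the series matrix and -0.17 with median scaling. The share higher among genes past 2-fold went from 63.1% to 74.1% in MSCs with the series matrix, and in CD8+ T cells from 65.5% to 76.3% with the series matrix, 52.5% with median scaling and 52.4% under normexp. *Pdgfc* on the Wt CD8+ T array and *Pdgfd* on both CD8+ T arrays were not well above background, and their genotype ratios there moved most with the background correction. The count of members higher in MSCs than in CD8+ T cells of Wt tumors was 4 under normexp in place of 5.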
